A study of Mus musculus with 6 samples.

Results

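A set of 8 genes, Lypd2, Slurp1, Psca, Ly6d, Lypd3, Ly6a, Ly6e and Ly6c1, was followed in whole mouse corneas before and after an alkali burn. They were chosen by name from earlier results of the same FPKM values, as Ly6 and Slurp genes with large or contrasting differences between the groups, so that the group differences given here describe the data and support nothing further. Each of the 8 names matched 1 locus, out of 28539 loci in the table and 23889 with a gene symbol. The corneas came from female C57BL/6J mice aged 6 to 8 weeks, with 2 samples in each of 3 groups: untreated corneas (day 0), corneas 5 days after the burn and corneas 15 days after it, the last described in the labels as a regression stage. Whether a pair of samples stands for different mice is not in the labels. RNA of whole corneas was selected for poly(A) and sequenced.

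Levels are given as FPKM, which allows for transcript length and library size and can be set side by side between genes. The table holds 1 FPKM per group, pooled over its 2 samples, with an interval computed by the authors, which follows each value below in parentheses. The values are not split by sample, so no spread between corneas and no test can be given. A locus is called apart between 2 groups when 3 conditions held: the intervals did not overlap, the greater FPKM reached 1, and (FPKM + 1) differed by 1 or more on the log2 scale. Whole corneas mix epithelium, stroma, endothelium and, after injury, vessels and leukocytes. Fewer cells of a type and less RNA per cell cannot be told apart in such samples.

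Ly6 proteins are small, rich in cysteine and built on a fold of 3 loops, the same fold as snake neurotoxins. Most are held on the outer face of the cell membrane by a glycolipid (GPI) anchor, while the Slurp proteins lack the anchor and are secreted. Slurp1 is abundant in the healthy corneal epithelium and tear film, where it is known as a restraint on inflammation, and Slurp1, Slurp2 and Lynx1 are known to act on nicotinic acetylcholine receptors. Ly6a is the stem cell antigen Sca-1 of the mouse, and Ly6a, Ly6c1 and Ly6e are widely used or known as genes of endothelium, leukocytes and interferon responses. Where in the cornea each transcript lay was not measured.

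The 8 genes followed several courses. Lypd2, Slurp1 and Psca, all among the most abundant transcripts of the uninjured cornea, were lower and apart at day 5. Ly6a, Ly6e and Ly6c1 were higher and apart at day 5. Ly6d was higher only in value at day 5 and was higher and apart at day 15, and Lypd3 was not apart in any comparison. At day 5 against day 0, 3 of the 8 were higher and apart and 3 lower and apart, where 3.42% and 2.5% of all 15576 loci tested were called in these directions. At day 15 against day 0, 3 were higher and apart (2.91% of 15186 loci) and 2 lower and apart (1.81%). At day 15 against day 5, 2 were higher and apart (0.395% of 14683 loci) and none lower and apart (0.388%). Because the genes were chosen on these comparisons, nothing is read from the excess over all loci. The median log2 ratio of the 8 was -0.38 at day 5 and 0.31 at day 15 against day 0, beside -0.09 and -0.10 over all loci tested.

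**Figure D1:**
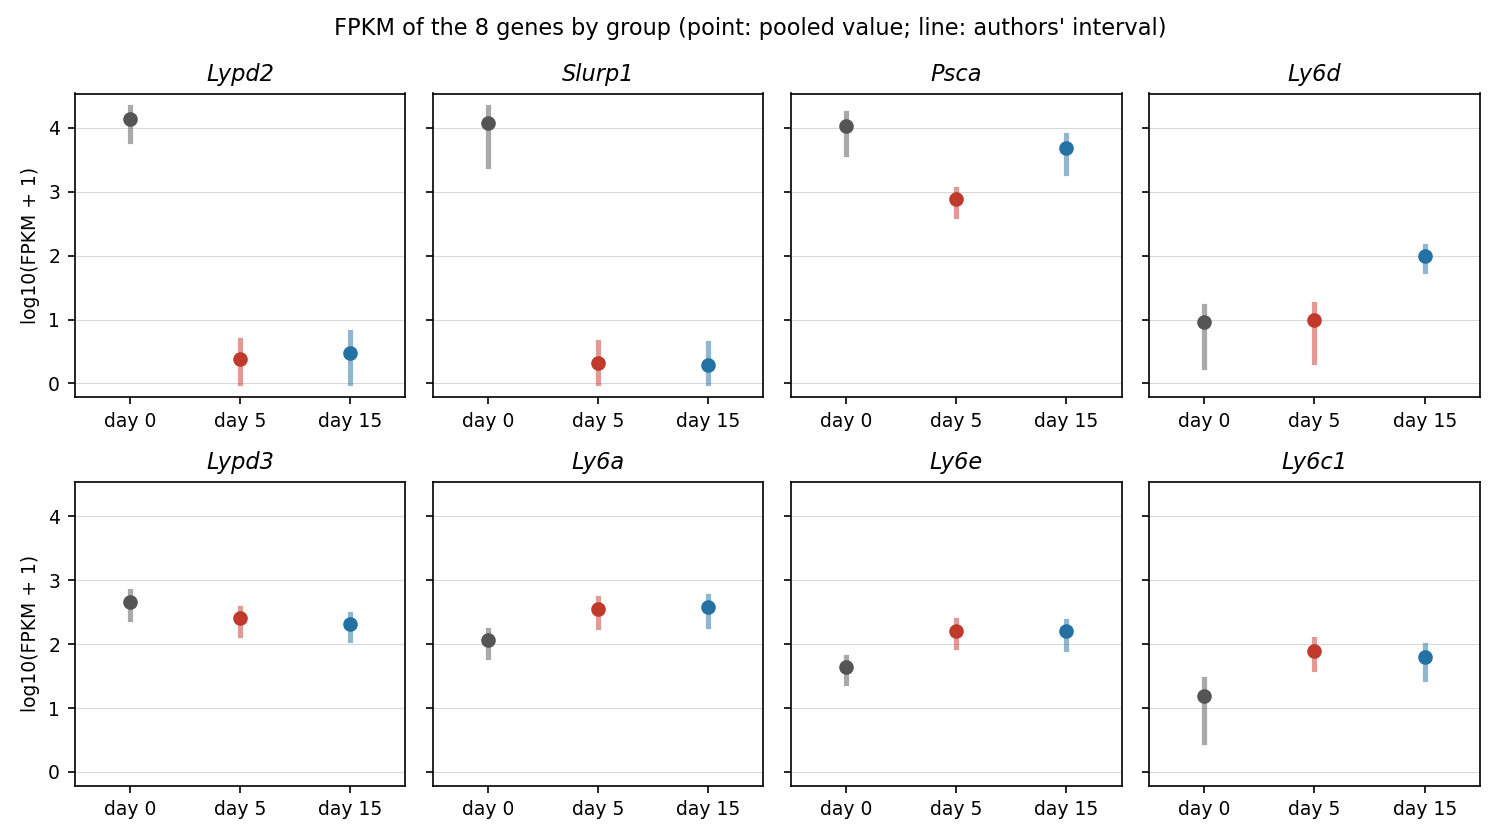
FPKM of the 8 genes at day 0, day 5 and day 15, 1 panel per gene, on a log10(FPKM + 1) axis. Points are the values pooled over 2 samples and vertical lines the authors' intervals. Lypd2 and Slurp1 go from 13645 and 11779.7 FPKM at day 0 to below 2 at both later days. Against its own other days, Psca is lowest at day 5 and Ly6d is highest at day 15. In level, the Psca point at day 5 still lies above the Ly6d point at day 15.

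Lypd2, a GPI-anchored Ly6 protein (mm10 chromosome 15, 74732252 to 74734313, minus strand), stood at 13645 FPKM (6228 to 21062) at day 0, 1.37 (0 to 3.76) at day 5 and 1.96 (0 to 5.37) at day 15. It was the 7th most abundant of 23888 loci with a symbol at day 0 and the 11965th of 23889 at day 5. The ratio to day 0 was 9929.6-fold lower at day 5 and 6961-fold lower at day 15, and these ratios are imprecise because the lower bound after injury is 0. Taking the nearest bounds of the 2 intervals instead, the day 0 level was 1655 times that of day 5 and 1159 times that of day 15. Days 5 and 15 overlapped, so that no return towards the uninjured level was seen by day 15.

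Slurp1 encodes the secreted member (chromosome 15, 74721234 to 74728392 for the locus, 74724318 to 74728034 for the annotated gene, minus strand). Its FPKM was 11779.7 (2517 to 21042) at day 0, 1.12 (0 to 3.45) at day 5 and 0.971 (0 to 3.30) at day 15. The day 0 level lay above both later ones, which overlapped each other, and between nearest bounds it was 729 times that of day 5 and 763 times that of day 15. Slurp1 was the 8th most abundant locus with a symbol at day 0, and its interval overlapped that of Lypd2 in every group. Its exons overlap those of Them6, a thioesterase-family gene on the other strand, and 9.31% of the 50-base windows of Slurp1 transcripts also occur in Them6. Them6 itself was at 23.2 FPKM (0 to 242) at day 0, 1.91 at day 5 and 1.89 at day 15, below Slurp1 in value at day 0 and above it at both later days. Strandedness of the libraries is not given, and the part of Them6 reads in the Slurp1 values was not tested.

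Psca, named for prostate stem cell antigen and GPI-anchored (chromosome 15, 74714691 to 74717465, plus strand), was at 10585 FPKM (3879 to 17290.4) at day 0, 757 (424 to 1090.1) at day 5 and 4903 (2003 to 7803) at day 15. It was 14.0-fold lower at day 5, or 3.56-fold between nearest bounds. At day 15 it was 6.48-fold above day 5 and apart from it, 1.84-fold between nearest bounds, while its interval overlapped that of day 0. Of the 3 genes of the 8 with the highest day 0 levels, Psca alone was higher and apart at day 15 against day 5. It was the 10th most abundant locus with a symbol at day 0, the 118th at day 5 and the 15th at day 15. Whether it had fully returned cannot be said, since the day 15 value was 2.16-fold below that of day 0 within overlapping intervals.

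The corneal epithelial markers measured beside these 3 genes differed among themselves. Of 19 with a usable status, 4 were lower and apart at day 5 and 1 at day 15, beside 2.5% and 1.81% of all loci tested. In value, 12 were lower and 7 higher at day 5, and 8 were lower and 11 higher at day 15. The medians were -0.23 and 0.15 on the log2 scale. All 19 had an FPKM of at least 1 in every group, though several of them, such as Krt14, Cdh1 and Epcam, are also genes of other epithelia. Krt12, the keratin that marks corneal epithelium, has no usable day 0 value, because its status there is not OK. The general epithelial genes Cdh1 (E-cadherin) and Epcam were not apart in FPKM: Cdh1 was at 76.9, 132 and 114 at days 0, 5 and 15, and Epcam at 29.1, 44.4 and 37.6. Pax6, at 128, 63.6 and 108, was also not called. Its day 0 and day 5 intervals did not overlap, but its log2 ratio of -0.997 just missed the threshold. Klf4, a transcription factor of surface epithelium known to activate Slurp1, was at 73.1, 27.0 and 31.8. It was lower and apart at day 5 (2.71-fold, but only 1.03-fold between nearest bounds) and not at day 15. The 4 lower and apart at day 5 were Aldh3a1, Upk1b, Dsg1a and Klf4, and Dsg1a alone was still so at day 15. The part of a changed epithelium in the Lypd2, Slurp1 and Psca values was not tested.

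Ly6d, a GPI-anchored protein of stratified epithelia and early lymphoid cells (chromosome 15, 74762056 to 74763567, minus strand), was low before and soon after the burn. Its FPKM was 8.13 (0.823 to 15.4) at day 0, 8.74 (1.19 to 16.3) at day 5 and 97.6 (55.8 to 139) at day 15. The first pair overlapped almost fully, and the day 15 level was 12.0-fold above day 0 and 11.2-fold above day 5, or 3.62-fold and 3.42-fold between nearest bounds. Markers of conjunctiva and goblet cells, the epithelium that borders the cornea, were set beside it. Of 15 loci, 11 were tested at day 5 against day 0, and 13 in each of the other comparisons. Against day 0, 6 were higher and apart at day 5 and 10 at day 15, beside 3.42% and 2.91% of all loci tested. At day 15 against day 5, 5 were higher and apart, beside 0.395%. In value 12 of the 15 were higher at day 15 than at day 5, Krt19 and Krt8 were lower, and Tff3 was listed at 0 throughout. The summed FPKM was 1806 at day 0, 4492 at day 5 and 11089.9 at day 15, but 81.2% of the day 15 sum came from the keratins Krt4 and Krt13, which were not apart in any comparison. Without this pair the sums over 13 loci were 280.2, 1657 and 2085. The mucin gene Muc5ac, which defines goblet cells, was among these 10. Their part in the Ly6d value was not tested.

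Lypd3, also called C4.4A, carries a pair of Ly6-type domains and is the 1 member on another chromosome (chromosome 7, 24635644 to 24641118, plus strand). It stood at 459 FPKM (249 to 668) at day 0, 255 (139 to 372) at day 5 and 207 (116 to 297) at day 15. Every pair of groups overlapped, with values 1.80-fold below day 0 at day 5 and 2.22-fold at day 15. Of the 4 genes of the 8 with the highest day 0 levels, Lypd3 had the smallest fold at day 5. Agr2, a secreted protein reported to bind Lypd3, was at 9.86 (2.30 to 17.4), 66.0 (32.5 to 99.6) and 308 (175 to 441), higher and apart in each successive group, while its relative Agr3 did not exceed 0.0256 in any group. Agr2 also belongs to the goblet cell list above. The neighbour before Lypd3 on the chromosome, Phldb3, was lower and apart at days 5 and 15 (31.0, 8.64 and 9.14 FPKM), and the next one, Gm4598, stayed below 1.

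Promoter sequences in the RefSeq table (build GRCm38.p6, which is mm10) matched 2 of the 8 genes, Lypd3 and Ly6c1. Psca, Slurp1, Lypd2, Ly6d, Ly6e and Ly6a had no entry. The Lypd3 window is printed because it belongs to the 1 member away from the Ly6 cluster; it runs from 250 bases before the start to 50 after it on the plus strand, chr7:24636320-24636619. Capitals mark matches to CACCC, the core bound by KLF factors, on either strand, 1 of which is part of the longer CACACCC.

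Lypd3: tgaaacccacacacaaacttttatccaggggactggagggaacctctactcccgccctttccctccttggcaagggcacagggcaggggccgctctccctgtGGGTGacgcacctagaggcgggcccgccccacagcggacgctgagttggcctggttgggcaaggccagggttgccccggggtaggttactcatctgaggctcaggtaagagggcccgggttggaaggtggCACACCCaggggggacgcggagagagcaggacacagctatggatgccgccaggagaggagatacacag

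This window holds 2 matches to CACCC, counting the 1 inside CACACCC, and none to GAAANNGAA, the core of the interferon response element, or TTCNNNGAA, the STAT element, all searched on both strands. Among 32851 windows of 300 bases in the table, 57.5% hold CACCC, 7.95% CACACCC, 8.56% GAAANNGAA and 8.30% TTCNNNGAA. The GC content of the Lypd3 window was 64.0%, beside a median of 52.7% over all windows. A match in letters is not a binding site.

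Ly6a, Ly6e and Ly6c1 were higher after injury and stayed near their day 5 level at day 15. Ly6a (chromosome 15, 74994553 to 74999064, minus strand) stood at 115 FPKM (61.8 to 168) at day 0, 350.4 (182 to 519) at day 5 and 383 (194 to 573) at day 15. It was 3.05-fold and 3.33-fold above day 0, but only 1.08-fold and 1.15-fold between nearest bounds, so that the intervals barely cleared each other. Ly6e, a GPI-anchored protein known for its effect on virus entry (chromosome 15, 74954785 to 74960139, plus strand), was at 43.3 (24.0 to 62.7), 162 (89.8 to 235) and 157 (82.4 to 232). Both later levels were apart from that of day 0 and overlapped each other. They were 3.75-fold and 3.63-fold above day 0 in value, but 1.43-fold and 1.315-fold between nearest bounds. Ly6c1, a protein of endothelial cells and some leukocytes (chromosome 15, 75044018 to 75049031, minus strand), was at 14.7 (1.88 to 27.4), 78.4 (39.2 to 118) and 61.2 (27.2 to 95.1). Day 5 was 5.35-fold above day 0 and apart. Day 15 was 4.17-fold above day 0 but overlapped it by a small margin, 27.2 against 27.4 at the bounds, and was called apart when FPKM was rescaled to an equal median or upper quartile (log2 ratios of 2.09 and 2.06).

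Ly6a and Ly6c1 share sequence with close relatives, and how reads that match several genes were counted is not given in the sources used here. Of the 50-base windows in Ly6c1 transcripts, 21.5% also occur in Ly6c2 and 11.1% in Ly6a, and 32.8% occur in some other gene. Of those in Ly6a, 15.0% occur in Ly6c1 and 19.0% in some other gene. No window of Lypd2, Psca, Ly6d or Ly6e was shared, so the split of reads between copies bears on Ly6a and Ly6c1 and on their low relatives. Ly6c2, the gene of inflammatory monocytes, was at 0.162 FPKM (0 to 0.519) at day 0, 2.07 (0 to 4.35) at day 5 and 0.819 (0 to 1.87) at day 15, and Ly6i at 0.359, 1.29 and 1.24. Neither was apart, and both were far below Ly6c1 in FPKM in every group. The likeness of Ly6c1 and Ly6c2 extends to their promoters, which are printed for that reason, both on the minus strand, at chr15:75048788-75049087 and chr15:75111922-75112221. Aligned with gaps allowed, 260 bases faced each other and 214 were identical (82.3%); capitals mark the 46 that differed.

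Ly6c1: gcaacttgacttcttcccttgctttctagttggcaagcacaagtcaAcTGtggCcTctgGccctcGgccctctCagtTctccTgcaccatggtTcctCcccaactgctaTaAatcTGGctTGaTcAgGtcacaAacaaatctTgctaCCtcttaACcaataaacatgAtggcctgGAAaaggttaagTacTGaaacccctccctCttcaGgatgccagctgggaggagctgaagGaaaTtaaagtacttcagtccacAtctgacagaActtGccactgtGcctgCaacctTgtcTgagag

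Ly6c2: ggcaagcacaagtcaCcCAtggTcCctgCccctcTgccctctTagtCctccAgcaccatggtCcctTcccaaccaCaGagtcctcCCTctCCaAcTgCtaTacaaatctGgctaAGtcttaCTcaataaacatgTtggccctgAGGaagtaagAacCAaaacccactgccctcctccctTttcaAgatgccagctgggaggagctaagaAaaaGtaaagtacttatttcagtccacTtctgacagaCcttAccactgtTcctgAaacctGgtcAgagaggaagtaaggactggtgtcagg

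The printed Ly6c1 window holds none of the 4 motifs searched. The printed Ly6c2 window holds 1 match to CACCC, not marked above, and none to the other motifs. A second Ly6c1 window in the table, chr15:75048614-75048913, holds 3 matches to CACCC and none to the other motifs. Aligned with the printed Ly6c2 window, this second one was identical at 127 of 142 facing bases (89.4%).

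Cell type markers and an interferon list were set beside Ly6a, Ly6e and Ly6c1. Of 20 markers of blood endothelium, 8 were higher and apart at day 5 and 9 at day 15, and their summed FPKM was 53.1 at day 0, 288 at day 5 and 219.6 at day 15. Of 14 markers of monocytes and macrophages, a list that includes Ly6c2, 4 and 6 were higher and apart, with sums of 179.7, 704 and 1099.8. Of 16 neutrophil loci, 8 and 6 were higher and apart, with sums of 54.0, 1748 and 937. A single Ltf locus gave 15.7, 1243 and 759.5 of these sums, and Ltf and Csf3r each have more than 1 locus in the list. Loci below 1 FPKM numbered 12 at day 0, 5 at day 5 and 8 at day 15. Elane, Mpo, Ngp and Camp were among them in every group. Markers of T and NK cells were low, with sums of 2.89, 21.8 and 16.8 over 10 loci, and 1, Thy1, was higher and apart at each day. Of 26 interferon-stimulated genes, 24 were tested: 0 was apart at day 5 and 1, Zbp1, was higher and apart at day 15. The medians of the 26 were -0.11 and 0.26 on the log2 scale. Reference genes had medians of 0.35 and 0.26, and none of 14 was apart. Over all loci tested, 5.92% were apart at day 5 and 4.72% at day 15. The counts of these last 2 lists lie near those shares, and nothing is read from them. Which cells carried the Ly6a, Ly6e and Ly6c1 transcripts was not tested.

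**Figure D2:**
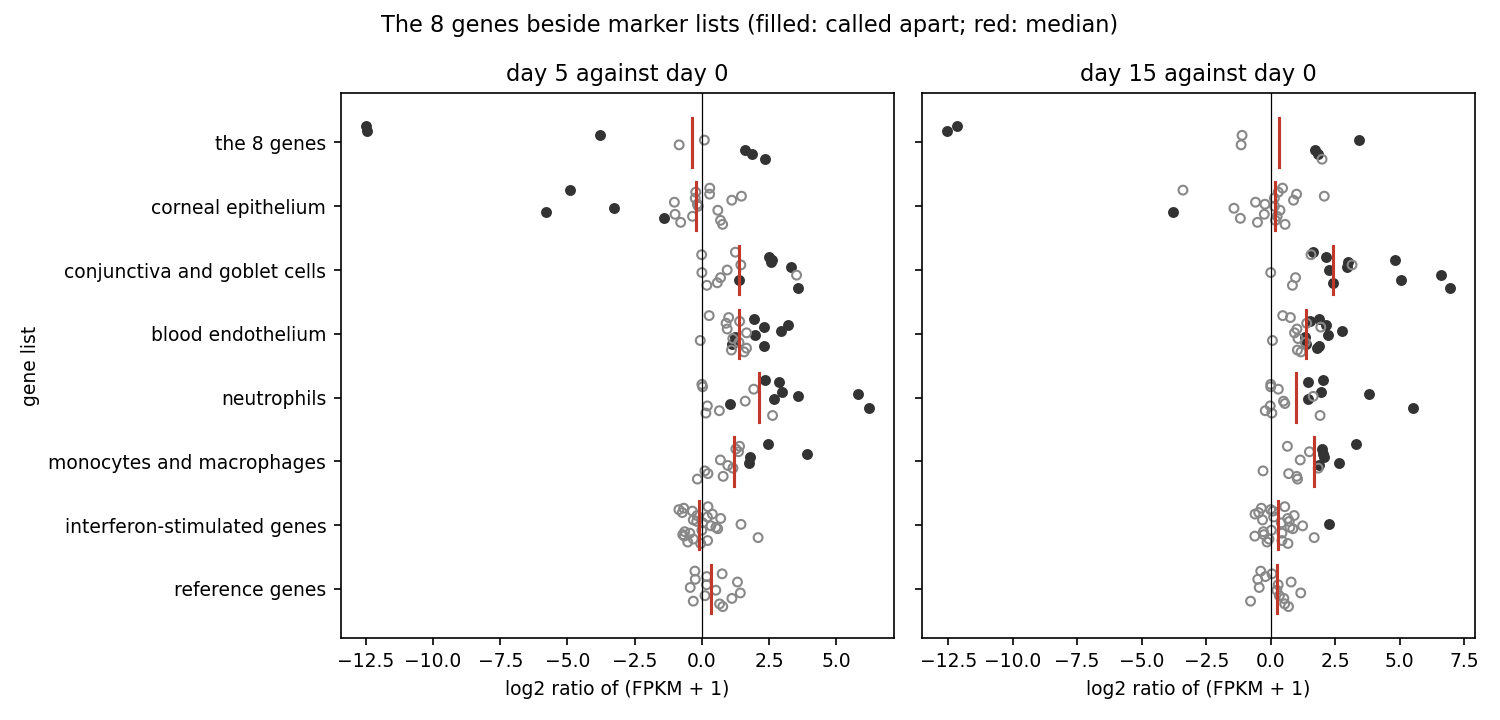
Log2 ratios of (FPKM + 1) against day 0 for the 8 genes and for the loci of 7 gene lists, day 5 on the left and day 15 on the right. Filled points were called apart and red bars are medians over all loci of a list with an OK status; Lypd2 and Slurp1 lie below -12, beyond every locus of the lists, and the medians of the vessel, neutrophil and macrophage lists lie further to the right than those of the interferon and reference lists.

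The order of levels differed between the groups. At day 0 Lypd2, Slurp1 and Psca led with overlapping intervals, all clear of Lypd3 in the next place, which was clear of Ly6a. Ly6a, Ly6e, Ly6c1 and Ly6d followed, each overlapping its neighbour. At day 5 Psca led, followed by Ly6a, Lypd3, Ly6e and Ly6c1 with overlapping neighbours, then Ly6d, Lypd2 and Slurp1, where Ly6c1 was clear of Ly6d. At day 15 Psca was clear of Ly6a. Ly6a, Lypd3, Ly6e, Ly6d and Ly6c1 overlapped their neighbours, and all were clear of Lypd2 and Slurp1. The 8 FPKM values summed to 36649 at day 0, 1615 at day 5 and 5811 at day 15, with Psca giving the greater part of the sum at day 15.

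Of the 8 genes, 7 lie in the Ly6 cluster of chromosome 15, and their differences are set out here by their place in it. Along the chromosome from Psca to Ly6c2 the table has 23 loci. The first 7, from Psca to Lynx1 over 38.4 kb, were all lower in value at day 5 and at day 15 than at day 0. Of these, 6 were lower and apart at day 5, the exception being Them6, and 5 at day 15, when Psca also overlapped day 0. Over all loci tested, 2.5% and 1.81% were called in this direction. Psca, Slurp1 and Lypd2 were chosen on these comparisons, so nothing is read from the excess. Lynx1, a GPI-anchored modulator of nicotinic receptors, was at 122 FPKM (67.0 to 176), 3.44 (1.27 to 5.61) and 4.29 (1.83 to 6.76), 35.4-fold and 28.3-fold lower. Slurp2, a secreted relative of Slurp1 listed in the file as 2300005B03Rik, was at 36.7 (6.50 to 66.9) at day 0 and listed at 0 at both later days. A locus with no symbol between Lypd2 and Slurp2 was at 3.80 (0.806 to 6.79) and then listed at 0 as well.

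The next 16 loci, after Lynx1 up to Ly6c2 over 349.9 kb, behaved otherwise. Of the 11 with at least 1 FPKM at day 0 or day 5, 10 were higher in value at day 5 and 1, D730001G18Rik, lower (1.66 and 1.03). Those higher and apart at day 5 were Ly6e, Ly6a and Ly6c1, and at day 15 Ly6d, Ly6e and Ly6a, all of them among the chosen genes. Over all loci tested, 3.42% and 2.91% were called in this direction. None of the 16 was lower and apart in any comparison. The shares of all loci called lower were 2.5%, 1.81% and 0.388%, so a count of none lies near them and nothing is read from it. The boundary between Lynx1 and Ly6d was placed after the values were seen, and the division has no test. The stretch also stops at Ly6c2, and loci beyond it went both ways in value at day 5. A locus that merges Ly6f with 9030619P08Rik was lower (60.5 and 14.7 FPKM at days 0 and 5). Gpihbp1 was higher (0.536 and 3.89), and in both cases the intervals of the 2 groups overlapped.

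**Figure D3:**
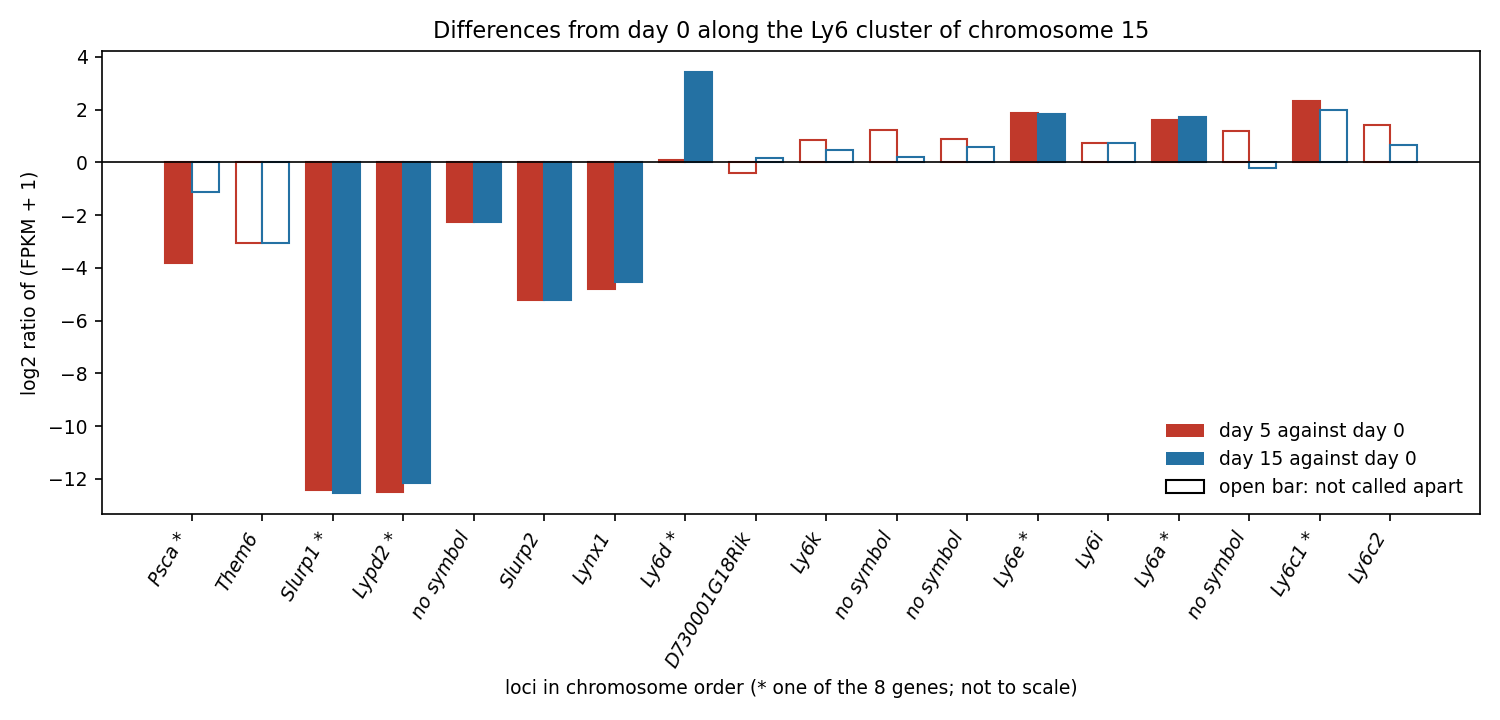
Log2 ratios of (FPKM + 1) against day 0 for the loci from Psca to Ly6c2 with at least 1 FPKM in a group, in chromosome order and not to scale, red for day 5 and blue for day 15. Bars from Psca to Lynx1 point down, to -12.5 at Slurp1 and Lypd2, and bars from Ly6e to Ly6c2 point up at day 5, with Ly6d close to 0 at day 5 (0.09) and up at day 15 (3.43); open bars were not called apart.

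The rest of the Ly6/uPAR family gives the wider setting. Of 50 family symbols listed, 44 had a locus of their own, 7 of them matched through RefSeq synonyms. Beside the 8 genes, 18 of the other 36 loci reached an FPKM of 1 in a group, and 8 were listed at 0 throughout. Of the 36, 1 was higher and apart and 5 lower and apart at day 5, 1 and 4 at day 15, and 1 of each at day 15 against day 5, beside the percentages of all loci given above. The median log2 ratio over all 36 was 0 in each comparison. Over those with an FPKM of at least 1 in either group it was -0.63 at day 5 (18 loci) and -0.27 at day 15 (16 loci) against day 0, beside -0.09 and -0.10 over all loci filtered in the same way.

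The 5 lower and apart at day 5 were Slurp2, Lynx1, Ly6g6c, Lypd6 and Lypd8. Ly6g6c, a Ly6 gene in the MHC region of chromosome 17 (35067325 to 35070048), was at 159 FPKM (91.9 to 226) at day 0, 4.40 (1.04 to 7.76) at day 5 and 25.0 (12.2 to 37.9) at day 15. It was 36.1-fold lower at day 5 than at day 0 and 5.68-fold higher at day 15 than at day 5, apart both times, so that a low day 5 level followed by a higher day 15 level was also seen outside chromosome 15. At day 15 it was still apart from day 0 (6.35-fold lower). Lypd6, a modulator of Wnt signalling, was at 2.75, 0.315 and 0.348, and Lypd8, known as an antibacterial protein of the gut, at 3.11, 0.255 and 0.470, both near the lower limit of what these intervals resolve.

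Plaur, the urokinase receptor, was the 1 other family locus higher and apart at day 5. Its FPKM was 2.21 (0 to 4.48) at day 0, 107 (57.1 to 158) at day 5 and 30.7 (12.9 to 48.6) at day 15, and it was also the 1 lower and apart at day 15 against day 5 (3.49-fold). Gpihbp1, the endothelial anchor of lipoprotein lipase, was at 0.536, 3.89 (0.0819 to 7.71) and 4.13 (0.153 to 8.11) and was not apart. Cd59a, which blocks the complement pore, was at 25.6, 14.7 and 26.5, and its copy Cd59b at 2.86, 1.74 and 1.57, neither apart. Of the other loci of the MHC cluster, Ly6g6e was at 16.4, 12.7 and 22.7 and Ly6g6d at 2.63, 0.929 and 4.60. Pinlyp, an inhibitor of phospholipase, was at 4.36, 6.35 and 9.65, Ly6k at 0.703, 2.05 and 1.38, Lypd1 at 3.17, 0.756 and 0.470, and Lypd6b at 2.53, 0.760 and 1.17. Spaca4 had values of 0, 1.43 (0 to 9.08) and 0.826. None of these was apart in any comparison. A locus that merges Ly6f with 9030619P08Rik (60.5, 14.7 and 28.6 FPKM) was left out of the counts because it cannot be split.

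**Figure D4:**
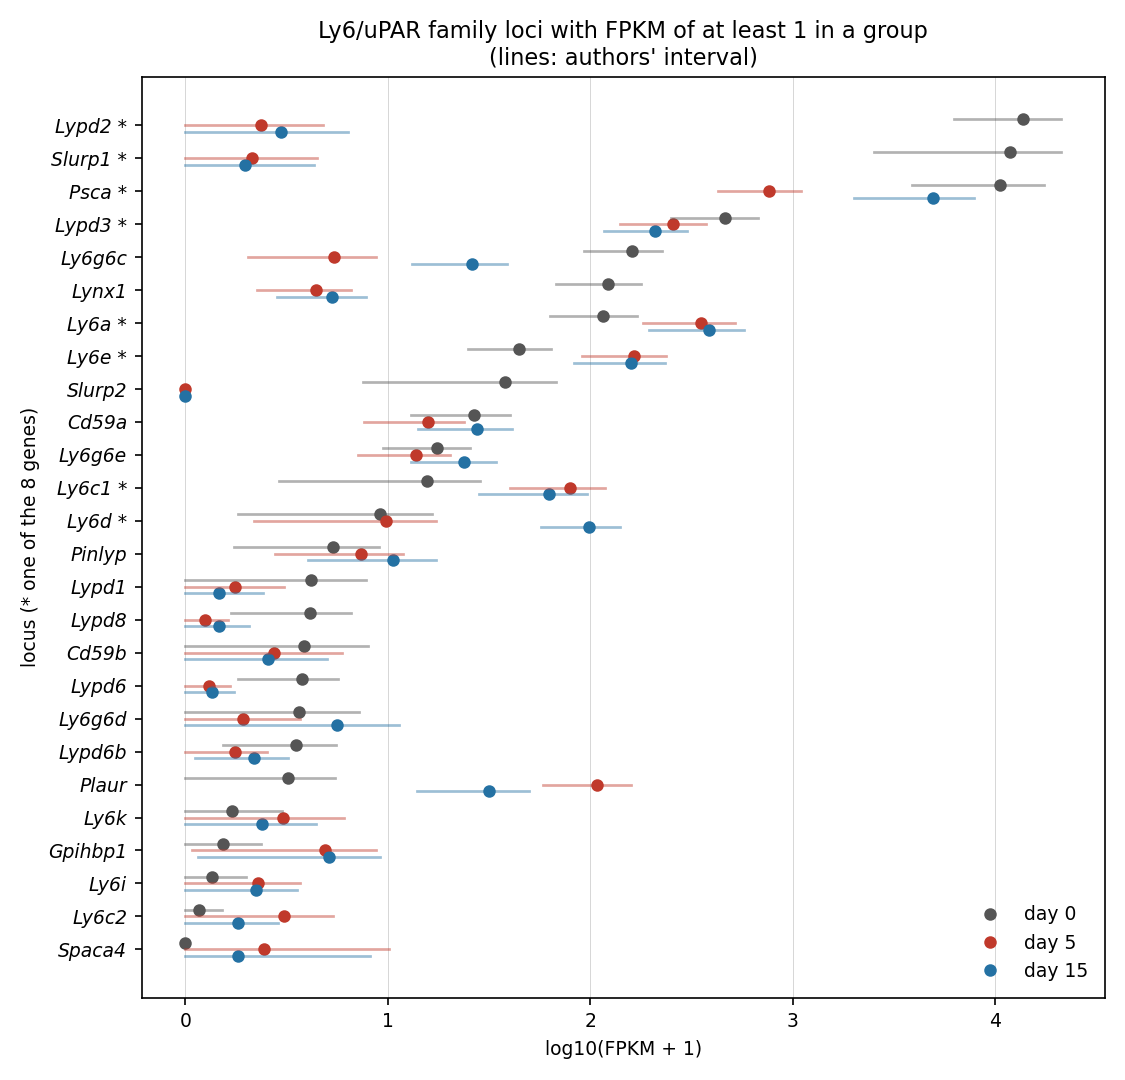
FPKM on a log10(FPKM + 1) axis of the 26 Ly6/uPAR family loci that reached 1 in a group, ordered by day 0 level, with asterisks on the 8 genes. Points are pooled values for day 0 (grey), day 5 (red) and day 15 (blue) and lines the authors' intervals; Lypd2, Slurp1, Ly6g6c, Lynx1 and Slurp2 have both later points to the left of day 0, and Plaur has both to the right.

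Among known partners of these proteins, Agr2 is given above. All 16 nicotinic receptor subunit genes, on whose receptors Slurp1, Slurp2 and Lynx1 are known to act, were low in these RNA values. In any 1 group 15 of them were below 1 FPKM. The exception was Chrnb1 at day 0 (1.80) and day 15 (1.07), and Chrna1 at day 5 (1.17). Chrna7, the subunit named most often as a Slurp1 target, was at 0.269 at day 0, 0.0620 at day 5 and 0.0688 at day 15. Only Chrnb1 and Chrna1 ever reached the FPKM of 1 that a call needs, and neither was apart. The remaining subunits, Chrna7 included, were too low for the rule to call, so it says nothing about differences in them. Of 23 genes for making or attaching the GPI anchor, none was apart in any comparison, with medians of -0.22 at day 5 and -0.07 at day 15 against day 0 on the log2 scale. Among all loci tested, 5.92% separated untreated corneas from the earlier injured group and 4.72% from the later one. Between the injured groups the share was 0.783%. A count of none among 23 lies near these shares, and nothing is read from it.

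Loci with the most similar course were ranked by the distance between their 3 values of log2(FPKM + 1), each set relative to the mean of the locus, over 3 groups and 6502 candidate loci. With 3 points per locus such likeness is a description only. Lypd2 and Slurp1 were each other's nearest locus, at a distance of 0.33. The next for both were Ppp1r3c and Car3, at 4.75 or more, so that no other of the 6502 candidates lay closer. For Psca the nearest were lens crystallins: Cryaa (0.02; 158, 10.6 and 72.9 FPKM), Crybb3 (0.42) and Cryba4 (0.44). These 3 lens genes were thus lowest at day 5 like Psca, and the part of lens tissue in its value was not tested. Ly6d was nearest to Reg3g (0.56), Rnu12 (0.58) and Pcp2 (0.86), and Lypd3 to Hist1h2ai (0.03), Rhbdf1 (0.04) and Wiz (0.04). Ly6a was nearest to Cmah, Prcp and Sdhc, each at 0.02, and Ly6e to Gpha2 (0.04), Bnip3 (0.05) and Pfkp (0.06). Ly6c1 was nearest to Il1r2 (0.02; 15.8, 83.9 and 66.7 FPKM), Ndnf (0.03) and Ecscr (0.04), of which Ecscr is in the endothelial list (7.30, 40.7 and 30.8 FPKM) and Il1r2 in the neutrophil list.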

How the data were processed

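Values are FPKM in a Cuffdiff gene table, as deposited by the authors, with 1 value, a lower and an upper bound and a status per group; the table holds 0 columns for single samples. Bowtie2 2.2.6, TopHat2 2.1.0, Cuffdiff, Cufflinks 2.2.1 and the build mm10 are named in the submitters' processing notes; annotation, strandedness, interval level and treatment of reads with several matches are not given in the sources used here. Depth is unknown, since FPKM carries no read totals, and pooling hides the spread between corneas.

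Loci were matched by symbol. Log2 ratios use a pseudocount of 1, which understates differences of low genes. The call rule (status OK, FPKM of at least 1, log2 ratio of at least 1 in size, intervals not overlapping) was tried on simulated data and run on all loci. The simulated noise was set to a fraction of the interval width, so that trial does not measure how often calls in these data are wrong. No test was run. The 8 genes, the gene lists and the named genes rule (the 8 genes, family loci with FPKM of at least 1, the 3 nearest loci per gene, neighbours, and 2 loci per marker list, those of highest FPKM, given in the closing section) were chosen with earlier results of these data known. Coordinates are 1-based, gene spans from GENCODE M21 (GRCm38), promoters from RefSeq. Figures were drawn with matplotlib 3.10.9 and values computed with pandas 2.3.3 and numpy 2.4.6 under Python 3.11.15. Alternatives varied the pseudocount, filter, fold, interval rule, scaling, summing of loci and promoter window.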

Additional observations from a re-analysis of the deposited data

How the results depend on the processing

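No paired analysis was possible because the table has 1 column per group, and for the same reason leaving out replicates was not run. Of 216 values of the 8 genes under the alternatives (24 log2 ratios under 9 settings), 207 kept their call and none changed direction. Those that changed were Ly6a and Ly6e, not called in either comparison with day 0 at a log2 ratio of at least 2, and, at day 15 against day 0, Psca, Lypd3 and Ly6c1, called without the interval rule, and Ly6c1 with either rescaling. Without the interval rule, 8 of the 8 genes were apart at day 15 against day 0, 4 of them lower, and the family had 7 loci higher at day 5 and 16 apart at day 15, 10 of them lower. Under that setting 10.8% of all loci tested were higher at day 5, and 17.8% were apart at day 15, 9.43% lower. With a log2 ratio of at least 2, 1 of the 8 was higher and apart at day 5 (the family 2), 3 were apart at day 15, 1 of them higher (the family 2), and 0 family loci were lower at day 15 against day 5. At that threshold the share of all loci called higher at day 5 was 1.98%, and 2.5% were apart at day 15, 1.53% higher, and 0.177% were lower at day 15 against day 5. In the 250 bases before the start alone, 52.0% of windows hold CACCC, 6.93% CACACCC, 7.13% GAAANNGAA and 7.02% TTCNNNGAA. Interval width limits low genes: the half-width at day 5 was 174% of the FPKM for Lypd2 and 208% for Slurp1, but 44.0% for Psca.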

Other observations

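The 2 loci of highest FPKM in each list are given beside the 8 genes, at days 0, 5 and 15. They are single genes, and their FPKM does not measure how much of a cell type was present. In the corneal epithelial list these were Aldh3a1, an aldehyde dehydrogenase (9149.9, 303 and 866 FPKM), and Krt15, a keratin of basal cells (2435, 2974 and 4877). Krt4 and Krt13, keratins of moist stratified epithelium, led the conjunctival list, at 757, 2070.3 and 6734 and at 769, 765 and 2271. Erg, an endothelial transcription factor, and Ecscr led the vessel list, Erg at 12.0, 118 and 56.3. Ltf, the gene of lactoferrin, and S100a9 led the neutrophil list, at 15.7, 1243 and 759.5 and at 19.5, 242 and 63.1. Lyz2 and the complement gene C1qb led the macrophage list, at 68.3, 385 and 685 and at 28.1, 96.2 and 182. Thy1 and Cd4 led the T and NK cell list, at 1.71, 15.3 and 9.76 and at 0.611, 2.34 and 3.13.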
